A study of Mus musculus with 16 samples.

Results

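The 8 genes described here make, cut or bind hyaluronan, and they were taken by symbol from the 55487 genes of the count table. They are the hyaluronan synthases Has1, Has2 and Has3, the hyaluronidases Hyal1 and Hyal2, the receptor Cd44, and the matrix proteins Tnfaip6 and Ptx3. The set was chosen by Has1, on its higher level in CM + Rux than in CM and its lower level once IKK-16 was added, so Has1 values across those 3 groups are a description without a test. RNA of bone marrow-derived macrophages (BMDMs) of WT Balb/c mice aged 8 weeks was sequenced in 16 samples and 6 groups. CM is medium conditioned by 4T1 cells, a mouse mammary carcinoma line, and DMEM is the culture medium without tumor cell factors (No_CM in the labels). Ruxolitinib (Rux) is an inhibitor of the Janus kinases JAK1 and JAK2, and IKK-16 blocks the IκB kinases upstream of NF-κB. The groups without a stated dose were DMEM (n = 2), DMEM + Rux (n = 3) and CM (n = 3). CM + Rux had 0.5 µM ruxolitinib and a 4 h label (n = 3). CM + Rux with a 2 h label had the same 0.5 µM ruxolitinib (n = 2). CM + Rux + IKK-16 had 0.5 µM ruxolitinib and 0.8 µM IKK-16 (n = 3). The ruxolitinib dose in DMEM and the meaning of the 2 h label are not given in the sources used here. IKK-16 was measured only together with ruxolitinib, so no group holds IKK-16 in CM alone. The labels do not say whether samples of a group came from separate mice, and p-values measure only the spread between these samples.

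Hyaluronan is a long unbranched sugar polymer of the extracellular matrix. Synthases in the plasma membrane build it from UDP-glucuronic acid and UDP-N-acetylglucosamine and push the growing chain out of the cell, and hyaluronidases cut it into fragments. Cells hold hyaluronan through receptors such as CD44, and secreted proteins such as TSG-6 (Tnfaip6) and pentraxin 3 (Ptx3) tie the chains into cross-linked matrix in inflamed tissue. Macrophages take part on both sides, as cells that bind and clear hyaluronan and as cells that respond to it.

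Levels are in CPM, a gene's count relative to the total of its sample after scaling by relative log expression (RLE), and samples held between 18449388 and 46215853 counts. The filter of more than 1 CPM in at least 2 samples used CPM of total counts, before RLE scaling. Of the 8 genes, 5 passed it, and Has2, Has3 and Ptx3 did not and were not tested. Has1 passed only through samples in CM, so a difference from DMEM was built into its passing. Tnfaip6 passed only through replicates 1 and 2 of CM without inhibitor, so a lower level in every other group was built into its passing. To be called, a gene needed both an adjusted p under 0.05 and a log2 difference of more than 0.5 in size. In bulk samples of this kind, fewer expressing cells and less RNA per cell cannot be told apart. The 9 macrophage markers were present in every sample, with a summed level of 40231 to 57294 CPM. The 9 fibroblast markers summed to 22.7 to 30.2 CPM in DMEM, 26.9 to 30.7 CPM in CM, 31.9 to 34.1 CPM in CM + Rux and 16.1 to 28.8 CPM in CM + Rux + IKK-16, and none of them was at 0 throughout. CM + Rux thus held the highest fibroblast sums, as it held the highest Has1 levels, and their part in the Has1 values was not tested. The 9 mammary epithelial markers summed to at most 0.118 CPM in DMEM and to 0.815 to 1.45 CPM in CM, with Krt14, Krt5 and Cldn3 at 0 counts throughout. The 8 neutrophil markers, among them S100a8, summed to 0.327 to 0.414 CPM in DMEM and 1.72 to 3.24 CPM in CM, with Ly6g at 0 counts throughout. The 5 B cell markers went the other way, from 1.15 to 1.21 CPM in DMEM to 0.122 to 0.267 CPM in CM, with Pax5 at 0 counts throughout. These 3 lists moved with CM, as did Has1, Cd44 and Tnfaip6, and their part in these results was not tested.

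**Figure D1:**
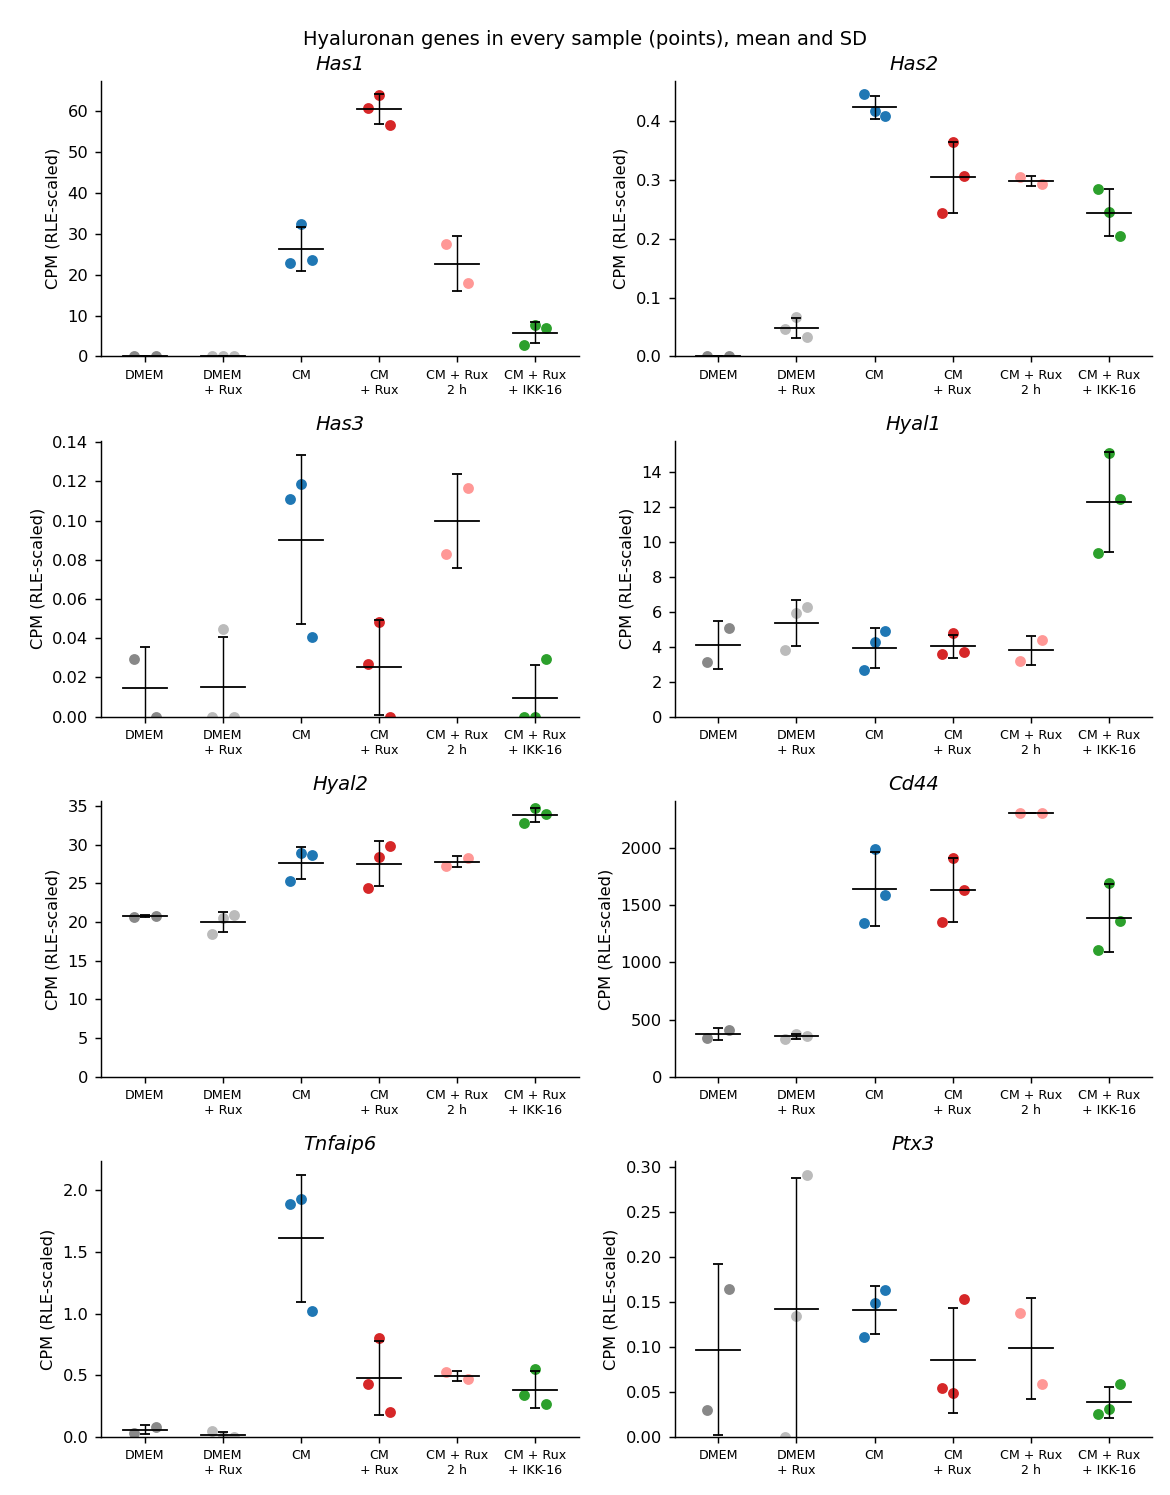
Scaled CPM (linear axis from 0, a separate scale for each gene) of the 8 hyaluronan genes in the 6 groups. Points are samples, and lines are the mean with the SD, drawn down to 0 where it would fall below. Has1 stood highest in CM + Rux at 56.6 to 63.9 CPM, Hyal1 stood highest in CM + Rux + IKK-16 at 9.36 to 15.0 CPM, and Has2, Has3 and Ptx3 stayed under 0.5 CPM in every sample.

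Has1 was the synthase these macrophages expressed most, and it was seen almost only in CM. The bases upstream of its start are shown because its level followed both inhibitors. They come from RefSeq on GRCm38.p6, read 5′ to 3′ and stop at the first base of the gene in the count table. The NF-κB consensus, GAS (TTCNNNGAA) and AP-1 (TGANTCA) were the motifs searched, on both strands. Each window ran from 250 bases before to 50 bases after a RefSeq start, and no motif matched in the Has1 window.
Has1 chr17:17855206-17855438 (minus strand): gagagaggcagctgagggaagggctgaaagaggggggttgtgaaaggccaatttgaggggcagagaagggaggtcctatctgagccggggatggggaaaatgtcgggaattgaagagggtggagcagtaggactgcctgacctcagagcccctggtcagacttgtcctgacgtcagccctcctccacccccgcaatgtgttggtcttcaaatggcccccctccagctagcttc
The NF-κB consensus matched in 4.51% of all 32851 such windows, GAS in 8.3% and AP-1 in 7.81%. A missing match covers only these letters in this window. Of the 8 genes 6 had such a window, Has2 and Has3 had none, and no motif matched in that of Cd44.

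In DMEM, Has1 had 1 count in replicate 1 and 0 in replicate 2. In DMEM + Rux it had 1 count in a single sample of 3. In CM its level was 22.9, 32.4 and 23.5 CPM in replicates 1, 2 and 3. Every CM sample was thus far above every DMEM sample. The ratio of the summed counts, scaled for depth, was 1589 with a 95% interval of 285 to 62804 that covers counting error only. Has1 was called higher in CM (edgeR quasi-likelihood, adjusted p = 5.9e-08). That direction was built into passing the filter, and without the filter the adjusted p was 4.9e-22 (edgeR). The CM samples were also among those by which Has1 was chosen, so both p-values are given as description only.

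In CM + Rux, Has1 reached 60.8, 63.9 and 56.6 CPM, or 60.4 ± 3.68 (SD, n = 3). In CM the mean was 26.3 ± 5.29 (SD, n = 3). The lowest CM + Rux sample lay above the highest CM sample, and the fitted level was 2.29 times that of CM. With IKK-16 added, Has1 was at 2.91, 7.74 and 6.85 CPM, or 5.83 ± 2.57 (SD, n = 3). All 3 of these samples lay below every other sample in CM. The fitted log2 difference to CM + Rux was -3.38 ± 0.28 (SE) and that to CM was -2.18 ± 0.28 (SE). These values chose the gene and carry no test. In the group labelled 2 h, Has1 was at 27.4 and 17.9 CPM in replicates 2 and 3. Both samples fell below the whole 4 h group, and their range overlapped that of CM without ruxolitinib. Because ruxolitinib in DMEM left Has1 at the level of 1 count, whether ruxolitinib acts on Has1 without CM could not be measured at this depth.

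Has2, the synthase that many other cell types use most, was present at a much lower level. Has2 had 0 counts in both DMEM samples. In CM it had 8, 14 and 10 counts, which was 0.445, 0.416 and 0.407 CPM. CM was at least 3.44-fold higher than DMEM, with DMEM set at the limit of 3 counts per library. Without the filter on low counts Has2 was called in that comparison (edgeR, adjusted p = 3.1e-05). In the other groups in CM the mean level of Has2 was 0.304 CPM with Rux, 0.298 CPM with Rux under the 2 h label and 0.244 CPM with Rux + IKK-16. The Has2 counts of CM + Rux against CM had a ratio of 0.729 with a 95% interval of 0.428 to 1.24, and those of CM + Rux + IKK-16 against CM + Rux a ratio of 0.803 with an interval of 0.456 to 1.404. Has2 was thus lower on average with Rux, where Has1 was higher, by an amount within counting error. Part of its exons, 4.3% of their bases, lies opposite Has2os.

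Has3 had at most 4 counts in any sample. Its mean was 0.0903 CPM in CM and 0.0251 CPM in CM + Rux, and 3 of the 5 samples in DMEM groups and 2 of 3 with IKK-16 held no count. The Has3 counts of CM + Rux against CM had a ratio of 0.333 with a 95% interval of 0.0556 to 1.46. Those of CM + Rux + IKK-16 against CM, 1 against 7, had a ratio of 0.103 with an interval of 0.0023 to 0.801 that covers counting error only, and without the filter on low counts Has3 was not called there (edgeR, adjusted p = 0.26). Per kb of exons in CM, the mean level was 5.81 CPM for Has1, 0.0998 CPM for Has2 and 0.0142 CPM for Has3. In CM + Rux, the level of Has1 was 13.4 CPM per kb and that of Has2 0.0717 CPM per kb.

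Cd44, the main hyaluronan receptor of leukocytes, was by far the most abundant of the 8 genes. In DMEM its level was 338 and 412 CPM in replicates 1 and 2. In CM it was 1349, 1992 and 1594 CPM in replicates 1, 2 and 3. The groups did not overlap, and Cd44 rose by a log2 fold change of 2.13 ± 0.21 (SE), or 4.38 times (edgeR, adjusted p = 1e-06). Cd44 was not called with either inhibitor. The level was 1633 ± 278 CPM in CM + Rux and 1645 ± 325 CPM in CM (SD, n = 3 each), with a log2 difference of -0.01 ± 0.17 (SE, edgeR, adjusted p = 0.99). With IKK-16 it was 1110, 1697 and 1361 CPM, a log2 difference to CM + Rux of -0.23 ± 0.17 (SE, edgeR, adjusted p = 0.40) with overlapping groups. Each of these samples lay below the CM + Rux sample of its own number, and with the replicate number as a block the difference was -0.24 (edgeR, adjusted p = 0.044), past the p threshold and below the fold threshold. Between the same groups the mean of Has1 went from 60.4 to 5.83 CPM.

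Cd44 was at 2313 and 2310 CPM in the 2 samples labelled 2 h, above all 3 samples of the 4 h group. The log2 difference was 0.50 (edgeR, adjusted p = 0.048), close to both thresholds. With the replicate number as a block it was 0.41 (adjusted p = 0.0025), below the fold threshold, and the call was also lost with filterByExpr and with total counts. The 5 dendritic cell markers, mainly Zbtb46, summed to 8.78 to 12.8 CPM in the 2 h group and 2.16 to 2.19 CPM in the 4 h group, and their part in the Cd44 values was not tested.

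Tnfaip6 encodes TSG-6, a secreted protein that moves the heavy chains of inter-alpha-inhibitor onto hyaluronan. Its upstream bases are shown because its level, like that of Has1, depended on CM but moved the other way with Rux. A further reason was a GAS match at positions -209 to -201 and an AP-1 match at -142 to -136 relative to the RefSeq start. The bases shown stop short of that start, where the gene begins in the count table. GAS is a sequence that STAT factors can bind, and AP-1 is bound by Fos and Jun proteins. Capitals mark both matches, GAS first. Both motifs match on the 2 strands at the same bases, so each is 1 site, and the matches are letters only.
Tnfaip6 chr2:52037863-52038008 (plus strand): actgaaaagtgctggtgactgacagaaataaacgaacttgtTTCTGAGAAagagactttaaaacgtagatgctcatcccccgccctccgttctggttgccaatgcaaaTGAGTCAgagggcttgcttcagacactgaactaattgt

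Tnfaip6 had 1 and 2 counts in DMEM. In CM it had 34, 65 and 25 counts, which was 1.89, 1.93 and 1.02 CPM. The groups did not overlap, the ratio of the summed counts was 31.6 with a 95% interval of 10.6 to 155, and Tnfaip6 was called higher (edgeR, adjusted p = 5.6e-05). The rise was built into passing the filter, and without the filter the adjusted p was 1.1e-07 (edgeR). In CM + Rux it was at 0.432, 0.799 and 0.204 CPM. Every CM + Rux sample lay below every CM sample, and Tnfaip6 fell by 1.64 ± 0.42 (SE) on the log2 scale (edgeR, adjusted p = 0.040). This direction was built into passing the filter, and without the filter the adjusted p was 0.0081 (edgeR). The call was lost without CM + Rux replicate 1 (adjusted p = 0.17), without CM + Rux replicate 3 (adjusted p = 0.12), without CM + Rux 2 h replicate 2 or 3 (adjusted p = 0.053 each), without CM + Rux + IKK-16 replicate 1 (adjusted p = 0.051), and where only CM and CM + Rux were fitted (adjusted p = 0.11). Without CM replicate 1 or CM replicate 2 Tnfaip6 no longer passed the filter and had no test in any comparison. The mammary epithelial markers also moved this way, at 0.815 to 1.45 CPM in CM and 0.194 to 0.944 CPM in CM + Rux, and their part in the Tnfaip6 values was not tested.

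With IKK-16, Tnfaip6 was at 0.335, 0.551 and 0.262 CPM, a log2 difference of -0.43 ± 0.47 (SE, edgeR, adjusted p = 0.59) to CM + Rux. Against CM it fell by 2.08 ± 0.43 (SE) on the log2 scale (edgeR, adjusted p = 0.0039, and 2.7e-04 without the filter). Tnfaip6 and Has1 were thus both induced in CM and both low with the 2 inhibitors together, and with Rux alone the level of Has1 was above that of CM while Tnfaip6 was below it. In the 2 h group Tnfaip6 was at 0.525 and 0.467 CPM, within the range of the 4 h group.

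Ptx3 encodes pentraxin 3, which binds TSG-6 and inter-alpha-inhibitor in hyaluronan matrix. It had at most 9 counts in any sample, and that sample was in DMEM + Rux. Its mean was 0.0966 CPM in DMEM, 0.141 CPM in CM, 0.0850 CPM in CM + Rux and 0.0382 CPM in CM + Rux + IKK-16. The counts of CM against DMEM had a ratio of 1.68 with a 95% interval of 0.539 to 6.18, so a change of Ptx3 with CM was not detectable at this depth. Those of CM + Rux + IKK-16 against CM, 4 against 11, had a ratio of 0.262 with an interval of 0.0608 to 0.883, and without the filter Ptx3 was not called there (edgeR, adjusted p = 0.33). The start region of Ptx3 held an overlapping pair of NF-κB consensus matches across the RefSeq start itself.

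Of the hyaluronidases, Hyal1 rose with IKK-16 and Hyal2 was called in none of the comparisons. Hyal1 cuts hyaluronan to small pieces in lysosomes, and Hyal2 is anchored at the cell surface and cuts long chains to intermediate ones. The bases upstream of their RefSeq starts are shown because both genes lie close together on chromosome 9 and both had their highest level with IKK-16. The Hyal1 window held none of the motifs. The Hyal2 window held 1 NF-κB consensus match at positions -238 to -229 relative to the RefSeq start, in capitals, and it lies inside the gene as the count table bounds it, so the sequence is shown only up to the first exon base.
Hyal1 chr9:107576700-107576926 (plus strand): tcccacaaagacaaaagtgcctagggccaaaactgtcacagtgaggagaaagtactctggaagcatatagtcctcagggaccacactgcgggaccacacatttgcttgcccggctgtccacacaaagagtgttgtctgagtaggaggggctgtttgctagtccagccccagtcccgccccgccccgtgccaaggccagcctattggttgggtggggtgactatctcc
Hyal2 chr9:107568913-107568982 (plus strand): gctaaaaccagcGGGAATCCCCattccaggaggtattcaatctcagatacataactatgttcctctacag

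Hyal1 was at 3.13 and 5.08 CPM in DMEM. In CM it was at 2.67, 4.25 and 4.89 CPM. These groups overlapped, with a log2 difference of -0.03 ± 0.31 (SE, edgeR, adjusted p = 0.94). In CM + Rux Hyal1 was at 3.56, 4.80 and 3.66 CPM, inside the range of CM, with a log2 difference of 0.02 ± 0.27 (SE, edgeR, adjusted p = 0.99). With IKK-16 added it was at 9.36, 15.0 and 12.4 CPM. All 3 of these samples were above the other 13 samples. Hyal1 rose by a log2 fold change of 1.6 ± 0.26 (SE) against CM + Rux, or 3.04 times (edgeR, adjusted p = 0.0014). Against CM, a comparison that leaves out the CM + Rux samples, it rose by 1.62 ± 0.26 (SE, edgeR, adjusted p = 6.9e-04). The 5 endothelial markers, mainly Kdr and Pecam1, summed to 9.67 to 14.7 CPM in CM + Rux, 12.2 to 18.7 CPM in CM and 16.9 to 25.2 CPM with IKK-16, with Cldn5 at 0 counts throughout, and their part in the Hyal1 values was not tested.

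Part of the Hyal1 exons, 51.9% of their bases, is shared with genes of the same strand, of which Naa80, an actin acetyltransferase gene, takes 50.8% and Hyal3 4.21%. Fragments that lie in exons of several genes were left out of the counts, so the Hyal1 level per kb is understated. Naa80 rose by 0.58 ± 0.15 (SE) on the log2 scale with IKK-16 (edgeR, adjusted p = 0.019), less than Hyal1, and its part in the Hyal1 counts was not tested.

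Hyal2 was at 20.7 and 20.8 CPM in DMEM. In CM it was at 25.3, 28.9 and 28.7 CPM. The groups did not overlap, but the log2 difference of 0.41 ± 0.10 (SE, edgeR, adjusted p = 0.0018) was below the fold threshold. RLE scaling raised the median gene of this comparison by 0.31 on the log2 scale relative to total counts, and with total counts the Hyal2 difference was 0.10 (adjusted p = 0.31). With IKK-16 Hyal2 was at 32.9, 34.8 and 34.0 CPM, against 24.4, 28.5 and 29.9 CPM in CM + Rux. These groups did not overlap either, and the log2 difference of 0.30 ± 0.08 (SE, edgeR, adjusted p = 0.027) was again below the fold threshold.

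Per kb of exons, the order of Has1 and Hyal1 levels turned with IKK-16. In CM the mean level was 5.81 ± 1.17 CPM per kb for Has1 and 1.04 ± 0.302 for Hyal1 (SD, n = 3). In CM + Rux it was 13.4 ± 0.814 for Has1 and 1.06 ± 0.181 for Hyal1. In CM + Rux + IKK-16 it was 1.29 ± 0.568 for Has1 and 3.25 ± 0.755 for Hyal1, and the ranges of the samples did not overlap. The level of Hyal2 stayed between 8.37 and 10.3 CPM per kb in these 3 groups, and that of Cd44 between 205 and 243 CPM per kb. In DMEM the order of the levels per kb was Cd44 at 55.4, Hyal2 at 6.31 and Hyal1 at 1.09 CPM, with Has1, Has2, Has3, Tnfaip6 and Ptx3 under 0.04 CPM and at most 4 counts each in a DMEM sample.

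**Figure D2:**
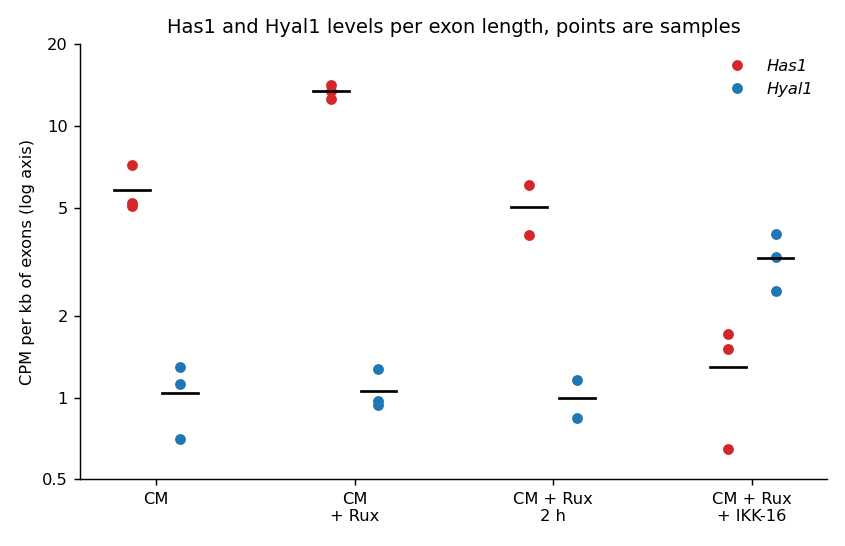
Mean (line) and samples (points) of Has1 and Hyal1 levels in CPM per kb of exons, on a log axis, in the 4 groups that received CM. Has1 lay above Hyal1 with 5.81 against 1.04 in CM and 13.4 against 1.06 in CM + Rux, and below it with 1.29 against 3.25 in CM + Rux + IKK-16.

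**Figure D3:**
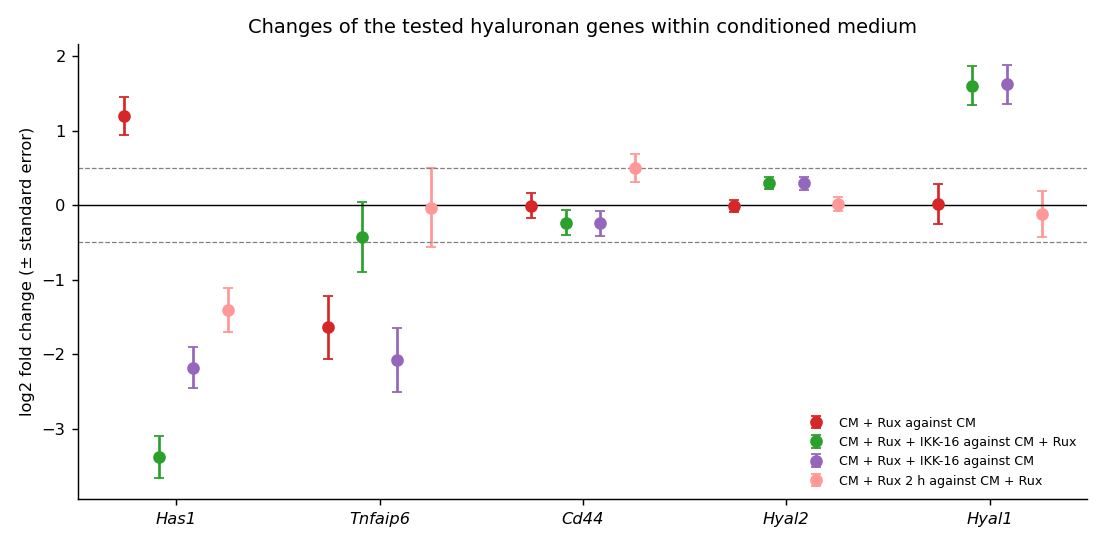
Log2 fold changes (vertical axis, error bars are the standard error of the edgeR fit) of the 5 tested genes in 4 comparisons within CM, with dashed lines at the fold threshold of 0.5. Has1 was at 1.20 with Rux and at -3.38 once IKK-16 was added, Hyal1 was at 1.6 with IKK-16, and Cd44 and Hyal2 stayed within 0.5 apart from Cd44 at 0.50 in the 2 h group.

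The counts of called genes were read against those over all 12372 genes tested. In CM against DMEM 3 of the 5 tested genes were called higher (Has1, Cd44 and Tnfaip6) and 0 lower, beside 20.9% of all genes higher and 24.1% lower. Has1 and Tnfaip6 passed the filter only through samples in CM, so their direction in this count was built in. The same holds for Tnfaip6 where it was lower with inhibitors than in CM. In CM + Rux against CM 1 was higher (Has1) and 1 lower (Tnfaip6), beside 1.2% and 2.13% of all genes. In CM + Rux + IKK-16 against CM + Rux 1 was higher (Hyal1) and 1 lower (Has1), beside 4.07% and 3.66% of all genes. Has1 chose the set in both of these comparisons, so nothing is read from its part in their counts, nor in the other counts that use the same samples. The call of Has1 in CM + Rux against CM was lost when CM replicate 1, CM replicate 3 or CM + Rux replicate 1 was left out. Against CM, CM + Rux + IKK-16 had 1 higher (Hyal1) and 2 lower (Has1 and Tnfaip6), beside 6.6% and 6.13% of all genes. In the 2 h group against the 4 h group 1 was higher (Cd44) and 1 lower (Has1), beside 12.6% and 10.7% of all genes. These comparisons share samples and are not independent of each other. With total counts in place of RLE, the split of all genes into higher and lower was 1536 and 4606 in place of 2584 and 2980 in CM against DMEM. It was 727 and 350 in place of 504 and 453 with IKK-16 against CM + Rux, 1255 and 587 in place of 817 and 758 with both inhibitors against CM, and 1339 and 1704 in place of 1556 and 1327 in the 2 h group.

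None of the 5 tested genes was called with ruxolitinib in the absence of CM. In DMEM + Rux against DMEM 0 were called by edgeR, 0 at an unadjusted p under 0.05 and 0 by DESeq2, beside 0% of all genes higher and 0.97% lower. The 0 genes called higher by edgeR stood beside 50 at an unadjusted p under 0.05 and 0 by DESeq2. Cd44 was at 331, 373 and 358 CPM in DMEM + Rux and Hyal2 at 18.5, 20.6 and 20.98 CPM, with log2 differences to DMEM of -0.08 ± 0.19 and -0.05 ± 0.09 (SE). Hyal1 was at 3.83, 5.94 and 6.25 CPM, overlapping DMEM, with a log2 difference of 0.41 ± 0.30 (SE, edgeR, adjusted p = 1). The test of whether the Rux effect differed between CM and DMEM called 0 of the 5 by edgeR, 0 at an unadjusted p under 0.05 and 0 by DESeq2, beside 0.234% of all genes higher and 0.178% lower. For Has1 that difference had a standard error of 3.29 on the log2 scale, since its counts in DMEM were 1 or 0.

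A list of 47 other genes of hyaluronan supply, breakdown, binding and CD44 handling placed these values in their pathway, and 26 of them passed the filter. In CM against DMEM 12 of the 26 were higher and 2 lower, beside the 20.9% and 24.1% of all genes. The median log2 fold change was 0.43 beside -0.0050 over all genes. Of the 12, Gfpt2 and Ambp passed the filter only through samples in CM, so their direction in this count was built in. In precursor supply 4 of 8 were higher, and 1 of the 4, Gfpt1, lost its call with total counts (0.44 in place of 0.75). Among them Ugdh, which makes UDP-glucuronic acid, rose by a log2 fold change of 1.73 from a mean of 41.3 to 137 CPM. Uap1, which makes UDP-N-acetylglucosamine, rose by 0.94 from a mean of 26.1 CPM. Gfpt2, of the first step of the hexosamine pathway, had a mean of 2.78 CPM in CM and 0 counts in both DMEM samples, which makes it at least 22.6-fold higher in CM, a direction built into its passing the filter. Uap1l1, also in the supply list, went the other way, from a mean of 312 to 224 CPM. Its log2 difference of -0.48 (edgeR, adjusted p = 1.5e-04) was below the fold threshold, and with total counts it was -0.79 (adjusted p = 2.2e-06). Ugdh and Uap1, of the 2 sugar building blocks of hyaluronan, thus rose beside Has1, while Uap1l1 did not. None of the 8 supply genes was called with Rux in CM or with IKK-16 added to Rux. With both inhibitors against CM, 2 of the 8 were lower, Gfpt2 by a log2 difference of -1.14 (edgeR, adjusted p = 0.016) and Ugdh by -0.65 (edgeR, adjusted p = 0.017).

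In the breakdown list 4 of 10 genes were tested. Cemip2, a cell surface protein linked to hyaluronan breakdown, rose in CM by 3.50 ± 0.35 (SE) on the log2 scale (edgeR, adjusted p = 1.3e-06), from a mean of 26.6 to 303 CPM. It fell by 1.04 ± 0.26 (SE) with Rux (edgeR, adjusted p = 0.038) and by another 0.94 ± 0.27 (SE) with IKK-16 (edgeR, adjusted p = 0.029), to 77 CPM. Cemip2 thus fell with Rux, where Has1 was higher, and fell with IKK-16, where Hyal1 rose and Has1 was lower too. Gusb, a lysosomal enzyme that removes glucuronic acid from chain ends, was lower in CM by a log2 fold change of -0.55.

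Among 6 tested receptors, Tlr2, a pattern recognition receptor that hyaluronan fragments can engage, rose in CM by 2.57 on the log2 scale, and Layn, a C-type lectin that binds hyaluronan, rose by 0.61, a call lost with total counts (0.30, adjusted p = 0.28). Tlr4, another such receptor, was not called in CM. Its mean was 239 CPM in CM, 116 CPM in CM + Rux and 186 CPM in CM + Rux + IKK-16. It fell by 1.04 ± 0.12 (SE) on the log2 scale with Rux (edgeR, adjusted p = 2.4e-04) and rose by 0.68 ± 0.12 (SE) with IKK-16 (edgeR, adjusted p = 0.0026). These 2 steps of Tlr4 were opposite in direction to those of Has1. In the 2 h group both genes were lower than in CM + Rux, with Tlr4 at a mean of 62.2 CPM.

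Only 2 of 16 matrix binding genes were tested. Vcan, the hyaluronan-binding proteoglycan versican, rose in CM by 4.34 ± 0.27 (SE) on the log2 scale (edgeR, adjusted p = 2.1e-08). Its mean was 3.68 CPM in DMEM, 75.1 CPM in CM, 101 CPM in CM + Rux and 25.4 CPM with IKK-16. The step to CM + Rux, 0.43 ± 0.18 (SE), was not called (edgeR, adjusted p = 0.26), and with IKK-16 Vcan fell by 1.998 ± 0.19 (SE, edgeR, adjusted p = 4.4e-05). Ambp, whose product includes the bikunin chain of inter-alpha-inhibitor, had a mean of 0.0966 CPM in DMEM, 3.34 CPM in CM and 0.534 CPM in CM + Rux. It rose in CM by 5.20 ± 0.68 (SE, edgeR, adjusted p = 1.6e-05) and with Rux fell by 2.65 ± 0.43 (SE, edgeR, adjusted p = 0.0024). Like Tnfaip6, Ambp passed the filter only through samples of CM without inhibitor, so both directions were built in. Without the filter the adjusted p was 4.6e-10 in CM and 1.8e-06 with Rux (edgeR).

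Of the 6 genes that link CD44 to the cytoskeleton or shed it from the surface, 3 were higher and 1 lower in CM. Mmp14, a membrane protease that can shed CD44, rose in CM by 4.75 ± 0.37 (SE) on the log2 scale (edgeR, adjusted p = 1.7e-07) to a mean of 516 CPM, was at 524 CPM with Rux and fell by 0.99 ± 0.27 (SE) with IKK-16 (edgeR, adjusted p = 0.023). Ezr, which ties CD44 to actin, rose in CM by 1.51. Adam17, another sheddase, was lower in CM by a log2 fold change of -0.88. Over the whole list, Rux in CM gave 0 higher and 3 lower (Cemip2, Tlr4 and Ambp), and IKK-16 gave 1 higher (Tlr4) and 3 lower (Cemip2, Vcan and Mmp14), beside 1.2% and 2.13% of all genes with Rux and 4.07% and 3.66% with IKK-16. Both inhibitors against CM gave 0 higher and 6 lower (Gfpt2, Ugdh, Cemip2, Vcan, Ambp and Mmp14), beside 6.6% and 6.13% of all genes. Ambp passed the filter only through CM without inhibitor, so its part in the lower counts with Rux and with both inhibitors was built in. In both comparisons with 0 higher, the count was also 0 at an unadjusted p under 0.05 and 0 by DESeq2. With Rux, the medians were -0.0098 for the list and 0.0071 for all genes.

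The pattern of Has1 over the 6 group means was compared with that of every tested gene, as the root mean square difference of log2(CPM + 0.5) after each gene was centred on its own mean. Among the 5 closest were Ccl5 at 0.48, Cacnb3 at 0.61, Shisa3 at 0.64 and Mir155hg at 0.72. Ccl5, a chemokine, had a mean of 6.73 CPM in DMEM, 352 CPM in CM, 462 CPM in CM + Rux, 167 CPM under the 2 h label and 111 CPM with IKK-16. Shisa3 had 7.43 CPM in CM, 26.3 CPM in CM + Rux and 2.12 CPM with IKK-16, so its ratio between CM + Rux and CM was above that of Has1. Cacnb3 had 30.8 CPM in CM, 59.3 CPM in CM + Rux and 47.1 CPM under the 2 h label. Mir155hg had 33.8, 38.6 and 51.0 CPM in those groups, so unlike Has1 it was not lower under the 2 h label than in CM + Rux. Among the hyaluronan genes Cd44 was the closest at 1.76, followed by Tnfaip6 at 2.25, Hyal2 at 2.55 and Hyal1 at 2.88. These genes were chosen for their likeness over 6 means, which is a description.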

How the data were processed

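Total RNA of BMDMs was isolated and sequenced in stranded mRNA libraries. Per the labels and the study's methods, the authors trimmed reads (Trimmomatic 0.33), aligned them to GRCm38 (HISAT2 2.1.0) and counted fragments per gene (featureCounts 1.6.2, Ensembl release 100), and they deposited raw counts without scaling. Identifiers were given symbols from GENCODE M21, which matched 55141 of 55487, all 8 genes included. The 12372 genes that exceeded 1 CPM in 2 or more samples were scaled by RLE and fitted in 1 model of all 16 samples with the quasi-likelihood test of edgeR 4.0.16 in R 4.3.3, with Benjamini-Hochberg adjustment over all genes. The methods name edgeR, these filters and thresholds, and give a t test for RNA-seq, which was not used. The pipeline was tested on simulated data. Intervals of count ratios are exact at 95% and cover counting error only. The genes, the pathway list and the tests were chosen with earlier results of these data known. The genes named are the 8, up to 3 called genes per role in CM against DMEM, up to 2 per role in each inhibitor comparison by size of change, and the 5 genes most like Has1, of which 1 is not reported here. Same-numbered samples of CM, CM + Rux and CM + Rux + IKK-16 deviated together from their group means (correlations over genes of 0.391 to 0.631). The numbers were therefore taken to pair samples in the replicate block, from the data and not from the labels. The main fit used group means without this pairing, so its p-values leave the pairing out. No 2 samples were copies. Alternatives were TMM, total counts (chosen after seeing the data), no filter, filterByExpr, DESeq2 1.42.0, only the groups compared, a replicate block, other thresholds and each sample left out.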

Additional observations from a re-analysis of the deposited data

Results flagged for a closer look

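The Rux effect on Tlr4 differed between media by the test of the difference itself, with a log2 difference of -0.94 ± 0.18 (SE, edgeR, adjusted p = 0.041). Tlr4 fell by 1.04 on the log2 scale with Rux in CM and differed by -0.09 in DMEM (adjusted p = 1), where its mean was 223 CPM without and 209 CPM with Rux.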

How the results depend on the processing

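The numbers of called hyaluronan genes in CM against DMEM, with IKK-16, in DMEM + Rux and in the test of Rux in CM against DMEM stayed within 1.5 times their value under the alternatives run. Without CM replicate 1 or 2, Tnfaip6 left the tested genes, which took CM against DMEM and IKK-16 with Rux against CM from 3 to 2 each. In CM + Rux against CM 2 were called, 1 when only the groups compared were fitted, and 0 to 2 with each sample left out, with 0 when CM replicate 1 or CM + Rux replicate 1 was the sample left out. In the 2 h against the 4 h group 2 were called, and 1 with filterByExpr, with the replicate block and with total counts, and 1 to 2 with each sample left out. The replicate block took away the Cd44 call in the 2 h group (log2 difference 0.41) and changed no other call of these genes. Reversed signs occurred only for differences that were not called. With total counts the Rux differences in CM were 0.015 for Hyal2 and 0.014 for Cd44, and that of Hyal2 in the 2 h group was -0.053, or -0.031 with the block. With each sample left out, the Rux difference in CM ranged from -0.14 to 0.15 for Cd44, -0.18 to 0.19 for Hyal1 and -0.067 to 0.076 for Hyal2. In the 2 h group the range was -0.34 to 0.12 for Hyal1, -0.069 to 0.072 for Hyal2 and -0.30 to 0.55 for Tnfaip6. In DMEM with Rux it was -0.22 to 0.066 for Cd44, -2.38 to 1.81 for Has1 and -0.087 to 0.00049 for Hyal2. In the test of Rux in CM against Rux in DMEM it was -0.078 to 0.24 for Cd44, -0.61 to 3.57 for Has1, -0.016 to 0.13 for Hyal2 and -0.42 to 2.16 for Tnfaip6. For CM against DMEM Hyal1 ranged from -0.35 to 0.35, and with IKK-16 against CM + Rux Tnfaip6 ranged from -0.77 to 0.15. The cause was not tested. Of the 5 genes most like Has1, 3 were kept with a pseudocount of 1.

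Over all genes, CM + Rux against CM called 149 higher and 263 lower, 305 and 440 with the block, 269 and 416 without the filter, and 82 to 166 and 161 to 322 with a sample left out, lowest without CM + Rux replicate 1. The test of Rux in CM against DMEM called 29 and 22, 247 and 197 with the block, 147 and 87 by DESeq2, 213 and 136 without the filter, and 49 and 41 with total counts, and 9 to 84 and 5 to 34 with a sample left out. DMEM + Rux called 0 higher, 1 with the block and up to 5 with a sample left out. Has2, Has3 and Ptx3 lie at counts where only large differences could be seen, and groups of 2 samples limit DMEM and the 2 h group.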
